A study of Mus musculus with 4 samples.

Results

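The transcripts of 10 genes of the NF-kappaB system were measured in regulatory T (Treg) cells made in culture. The genes are the 5 subunits Rel, Rela, Relb, Nfkb1 and Nfkb2 and the 5 inhibitors Nfkbia, Nfkbib, Nfkbid, Nfkbie and Nfkbiz. They were taken by gene name from the non-control spots of the arrays, which gave 22 probes for the 10 genes, among 36942 gene names in all. The cells came from C57BL/6 mice of 2 genotypes with 2 single-colour Agilent arrays each. The first carries floxed Junb alleles and a Cre recombinase driven by Cd4 regulatory sequences (Junbfl/flCd4-Cre), and the control carries the floxed alleles without Cre (Junbfl/fl). JunB takes part in AP-1, a dimeric transcription factor. Cd4-Cre acts during T cell development in the thymus, before the naive cells used here arise. Sorted naive CD4 T cells of both genotypes were cultured for 3 days on anti-CD3 coated at 1 μg/ml, with 0.5 μg/ml of anti-CD28, antibodies against IFN-γ and IL-4 (5 μg/ml each) and TGF-β1 (5 ng/ml). The labels give neither the age of the mice nor whether arrays 1 and 2 of a genotype stand for separate mice or cultures. The p-values therefore cover only array-to-array spread, which may be technical.

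NF-kappaB is a family of dimeric transcription factors that the T cell receptor and CD28, the signals used in this culture, switch on. At rest, inhibitor proteins of the IkappaB group hold the dimers in the cytoplasm. Antigen receptor signals activate the IKK kinases, which mark the inhibitors for degradation, and the freed dimers enter the nucleus. Rela, Rel and Relb encode the subunits with a transactivation domain, while Nfkb1 and Nfkb2 encode precursors (p105 and p100) of the subunits p50 and p52. In mice, c-Rel, the product of Rel, is needed for normal Foxp3 induction and Treg development.

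The data behind these comparisons have limits that touch every value below. Between 59.3% and 66.3% of the non-control spots were well above background on an array and none was saturated. Over probes, the processed signals had a 75th percentile of 119 and 101 on the arrays labelled Junbfl/flCd4-Cre, and 151 and 145 on the controls. Junb was read first. Its probe at chr8:87501881-87501940 (mm9) was not well above background on either array labelled Junbfl/flCd4-Cre. On the controls it read 0.312 and 0.219 times the array's 75th percentile. It was at least 5.71-fold lower on the arrays labelled Junbfl/flCd4-Cre (limma adjusted p = 0.0396). The Junb probe at chr8:87500843-87500902 gave 8.82 and 99.8 times that percentile on arrays 1 and 2 labelled Junbfl/flCd4-Cre, against 64.7 and 62.7 on the controls. The log2 difference of this brighter probe was -1.10 ± 1.23 (SE, limma adjusted p = 0.527). Which stretch of Junb is floxed is not stated in the labels. A probe that lies outside it would check nothing, so the arrays go by their labels here. For the "at least" values, each dim array counted at the weakest signal it held well above background, or at the probe's own where higher. The calls and p-values beside these bounds come from the fit on the measured signals and do not test the bounds. A probe dim in 1 genotype entered the test through the other alone. All 9 T cell markers and all 7 Treg markers were detected on the 4 arrays. Of the T cell markers, Thy1 (-0.98) and Cd2 (-1.33) were called lower on the arrays labelled Junbfl/flCd4-Cre, in log2 differences, and of the Treg markers Ctla4 (-1.47) was called lower and Ikzf2 (4.56) higher, while Foxp3 gave -1.20 (limma adjusted p = 0.135). Markers of other cells were read by gene and by the sum of their relative signals (multiples of the 75th percentile), a sum in which bright probes weigh most. One label gives colon as the origin of the extracted RNA. Of 8 colon epithelium markers, 4 (Krt20, Cdh1, Vil1 and Muc2) stayed too dim to be tested. Of the 4 tested, Slc26a3 was called at least 8.44-fold higher. Krt8 (1.72), Car1 (0.39) and Epcam (-0.48) were not called, and Epcam was the negative member. The list summed to 0.989 and 1.02 on the arrays labelled Junbfl/flCd4-Cre, against 0.499 and 0.631 on the controls. Of 7 stromal markers 6 were tested (not Col3a1), 5 of them positive, with Dcn called at least 3.22-fold and Col1a1 at least 1.88-fold higher. Their sum, 17.8 and 18.2 on the arrays labelled Junbfl/flCd4-Cre against 28.9 and 24.4 on the controls, ran the other way through its brightest probe, Acta2 (-0.63). All 6 tested B cell markers of 8 (not Cd79a and Blk) were positive, Ms4a1 being called higher (3.18), with sums of 8.02 and 5.45 on the arrays labelled Junbfl/flCd4-Cre against 3.94 and 1.68 on the controls. All 5 tested myeloid markers of 8 (not Adgre1, Fcgr1 and Itgax) were positive and none was called, with sums of 59.9 and 31.1 on the arrays labelled Junbfl/flCd4-Cre against 25.3 and 16.8 on the controls, most of it Itgam. Of 6 NK cell markers 3 were tested (not Ncr1, Klrb1c and Gzma) and none was called, with sums of 19.5 and 35.7 on the arrays labelled Junbfl/flCd4-Cre against 5.84 and 9.68 on the controls that Nkg7 (2.28) carried, while Klrd1 (-1.04) and Prf1 (-0.18) were negative. The 1 tested CD8 T cell marker, Cd8b1, gave 0.55, and Cd8a was not tested. Such cells also use NF-kappaB genes, and their part in the values below was not tested. In bulk RNA, fewer cells of a type and less RNA per cell cannot be told apart.

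NF-kappaB genes are known to be targets of NF-kappaB itself, so promoters of some members are shown first. The kappaB consensus (both strands) and the AP-1 site TGACTCA (both strands) are in capitals. The sequences are RefSeq's (GRCm38.p6) and run from 250 bases before to 50 bases after an annotated start. Windows were found for 7 of the 10 genes (11 windows), all but Relb, Nfkb1 and Nfkbiz. The kappaB consensus was in 5 of these 7 genes (Rel, Nfkb2, Nfkbia, Nfkbie and 1 of 3 windows of Nfkbid), beside 9.55% of all genes, and in 7 of the 11 windows, beside 8.46% of all 32851. The AP-1 site was in 1 gene, Nfkbie, at base -156, beside 5.95% of all genes and 5.20% of all windows. Overlapping kappaB matches are joined into 1 stretch, and no AP-1 match overlapped one. A match describes the letters and is not a binding site. The other windows with the kappaB consensus, of Nfkbid and Nfkb2, are not shown. The windows of Nfkbie, Rel and Nfkbia and 1 window of Nfkb2 are these, 5′ to 3′ on the gene's strand:
Nfkbie, chr17:45555450-45555749: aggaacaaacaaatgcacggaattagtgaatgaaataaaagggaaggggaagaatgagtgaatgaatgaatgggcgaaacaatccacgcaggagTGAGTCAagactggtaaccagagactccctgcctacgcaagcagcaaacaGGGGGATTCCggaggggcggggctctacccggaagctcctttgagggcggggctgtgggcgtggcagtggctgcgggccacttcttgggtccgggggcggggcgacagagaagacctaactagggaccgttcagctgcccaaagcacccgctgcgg
Rel, chr11:23770920-23771219: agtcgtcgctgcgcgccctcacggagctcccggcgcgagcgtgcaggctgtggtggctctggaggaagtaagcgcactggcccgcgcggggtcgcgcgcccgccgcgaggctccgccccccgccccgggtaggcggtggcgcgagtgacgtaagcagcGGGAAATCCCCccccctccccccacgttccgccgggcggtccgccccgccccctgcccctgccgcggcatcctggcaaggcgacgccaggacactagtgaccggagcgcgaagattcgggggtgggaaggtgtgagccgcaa
Nfkbia, chr12:55492598-55492897: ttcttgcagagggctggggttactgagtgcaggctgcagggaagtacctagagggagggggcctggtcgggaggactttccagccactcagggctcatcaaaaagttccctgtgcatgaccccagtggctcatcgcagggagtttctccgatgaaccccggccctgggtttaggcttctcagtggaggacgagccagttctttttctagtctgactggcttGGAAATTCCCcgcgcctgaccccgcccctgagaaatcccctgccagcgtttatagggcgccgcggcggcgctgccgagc
Nfkb2, chr19:46304487-46304786: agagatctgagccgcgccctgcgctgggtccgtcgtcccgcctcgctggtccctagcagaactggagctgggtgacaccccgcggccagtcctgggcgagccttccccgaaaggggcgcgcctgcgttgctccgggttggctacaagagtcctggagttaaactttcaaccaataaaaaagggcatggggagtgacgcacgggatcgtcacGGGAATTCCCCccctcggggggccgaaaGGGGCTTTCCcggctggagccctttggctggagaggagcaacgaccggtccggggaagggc
Nfkbie thus holds 1 kappaB stretch and the only AP-1 site among the 7 genes with a window. Relb, Nfkb1 and Nfkbiz could not be searched. Rel and Nfkbia hold 1 kappaB stretch each, and this Nfkb2 window holds 2, at bases -39 and -11. The windows of Rela and Nfkbib held neither motif.

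None of the NF-kappaB subunit or inhibitor genes was called changed between the genotypes. Of the 22 probes, 21 were well above background on all 4 arrays and were tested with limma, and 0 were called at an adjusted p under 0.05, beside 6.78% of all 33606 probes tested (5.53% higher and 1.25% lower). The smallest adjusted p among the 21 was 0.0746. Without adjustment, 3 of the 21 (14.3%) had a p under 0.05, beside 38.2% of all probes. The differences, given as log2 of the signal on the arrays labelled Junbfl/flCd4-Cre minus that on the controls, lay between -0.37 and 0.95, with a median of -0.08, 9 positive and 12 negative. The median over all probes was -0.01. No member probe differed by more than 2-fold, while 21.4% of all probes did. The 95% interval of the difference lay within 2-fold in both directions for 15 of the 21 member probes, and for 44.3% of all probes. The genotypes did not overlap for 9 of the 21 (6 higher and 3 lower), beside 72.2% of all probes. Most members were bright, with 9 probes in the brightest of 5 equal classes of tested probes and 6 in the next. All probes of those classes had median differences of -0.35 and -0.23 and were called in 3.01% and 3.17% of cases, while the dimmest class, which held no member, had a median of 0.68 and 15.1% called. A p that misses the threshold does not show that the genes are unchanged, and the number of arrays limits the precision.

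**Figure D1:**
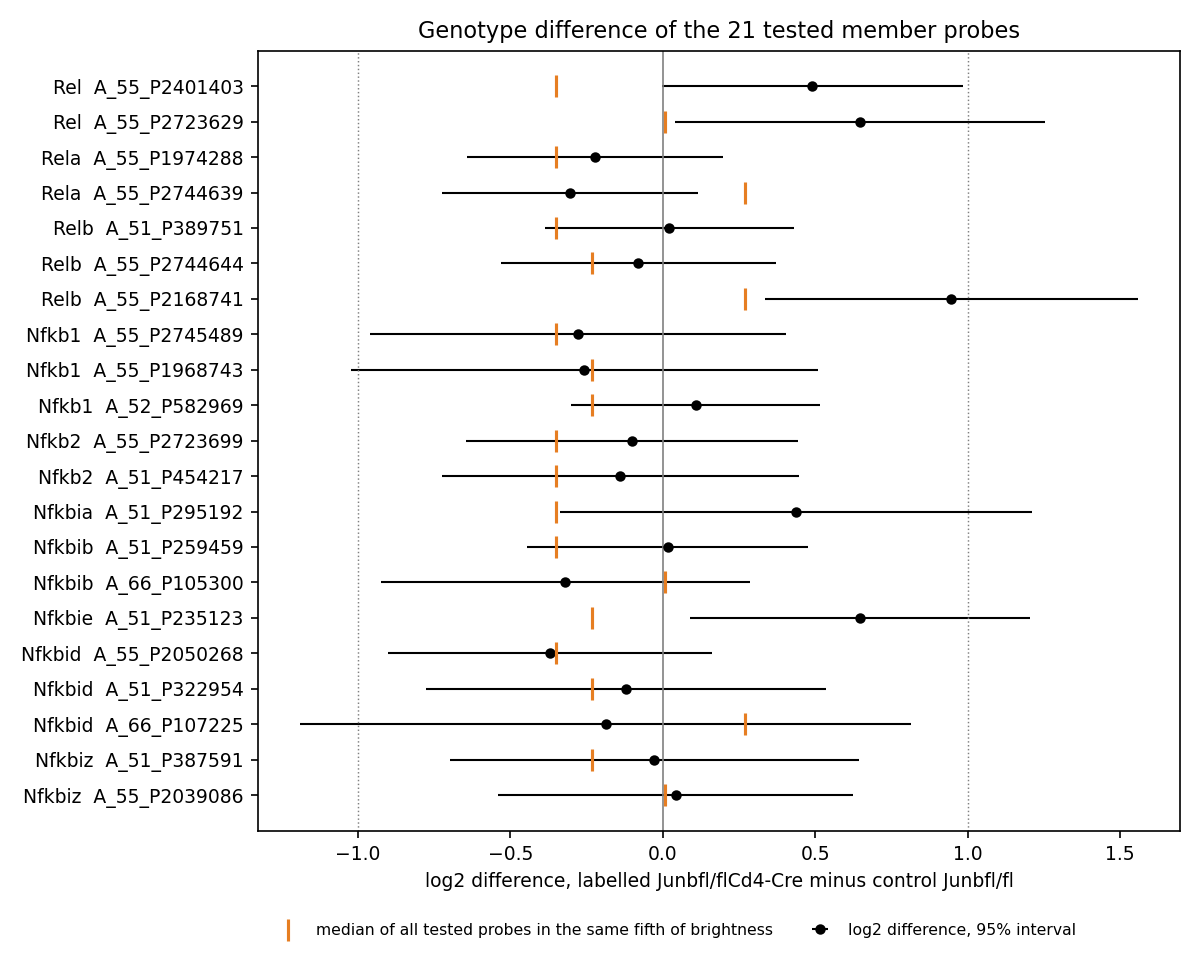
Genotype difference of the 21 tested member probes. The x axis is the log2 difference (labelled Junbfl/flCd4-Cre minus control Junbfl/fl, n = 2 arrays each), points are the fitted values, bars the 95% intervals of limma, orange ticks the median of all tested probes in the same of 5 classes of brightness, and dotted lines mark 2-fold. The intervals of 3 probes, 1 each of Rel, Relb and Nfkbie, lie above 0, and no point is past 2-fold.

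Rel, which encodes c-Rel, was the subunit whose probes all read higher on the arrays labelled Junbfl/flCd4-Cre, without passing the test. Signals are given here and below relative to the array's 75th percentile. The brighter Rel probe (A_55_P2401403, chr11:23637051-23637110, mm9) read 25.4 and 25.2 on the arrays labelled Junbfl/flCd4-Cre, against 20.0 and 16.2 on the controls. The dimmer one (A_55_P2723629, chr11:23641729-23641788, mm9) read 1.02 and 1.03 on the arrays labelled Junbfl/flCd4-Cre against 0.770 and 0.554 on the controls. Neither probe overlapped between the genotypes, and the arrays labelled Junbfl/flCd4-Cre were nearly equal to each other while the controls were spread. The log2 differences were 0.49 ± 0.18 (SE, n = 2 arrays each, 95% interval -0.0025 to 0.98, limma adjusted p = 0.132) and 0.65 ± 0.22 (0.04 to 1.25, adjusted p = 0.119). Without any 1 array they stayed positive, between 0.34 and 0.64 for the brighter probe and between 0.41 and 0.88 for the dimmer one. Before scaling, the processed signals of the brighter probe, 3036 and 2541 on the arrays labelled Junbfl/flCd4-Cre against 3018 and 2350 on the controls, overlapped. With median scaling, which moves the median of all probes to -0.54, that probe gave -0.04 and the dimmer one 0.11. This scaling moves every probe by the same amount, so their place relative to that median could not change. The first 30 of the 60 bases of each Rel probe, which lie at different places of the transcript (from base 7202 of ENSMUST00000102864 and base 2524 of NM_009044), identify them:
A_55_P2401403: tggtgttagctctctaccactaagttgtct
A_55_P2723629: ttctcattccgtttgatctcctaaagcctg
The intervals of the 2 differences overlap over most of their width.

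Rela, which encodes p65, the main transactivating subunit of the classical pathway, read lower on the arrays labelled Junbfl/flCd4-Cre by both of its probes, again without passing. The bright probe (A_55_P1974288, chr19:5648070-5648129, mm9) read 43.1 and 46.8 on the arrays labelled Junbfl/flCd4-Cre, against 51.7 and 53.0 on the controls. The dim probe (A_55_P2744639, whose 60 bases span 167 bases of the genome, chr19:5645363-5645529, mm9) read 0.248 and 0.257 on the arrays labelled Junbfl/flCd4-Cre against 0.299 and 0.325 on the controls. The genotypes did not overlap for either probe, and the gaps were small. The log2 differences were -0.22 ± 0.15 (95% interval -0.64 to 0.20, limma adjusted p = 0.329) and -0.30 ± 0.15 (-0.73 to 0.12, adjusted p = 0.215). A halving or doubling lies outside both intervals, which hold for the scaling reported only. The bright probe sits among probes whose median difference was -0.35, and with quantile normalization it gave 0.13. Under median scaling both Rela probes were called (-0.76, adjusted p = 0.0442, and -0.84, adjusted p = 0.0363), in a setting that called 38.6% of all probes, with a median of all probes of -0.54.

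Relb encodes the subunit that pairs with p52 in the alternative pathway, and its 3 probes disagreed. The brightest (A_51_P389751, chr7:20191722-20191781, mm9) read 8.31 and 8.21 on the arrays labelled Junbfl/flCd4-Cre, against 8.33 and 7.96 on the controls, a log2 difference of 0.02 ± 0.15 (95% interval -0.39 to 0.43, limma adjusted p = 0.926). The second (A_55_P2744644, chr7:20191939-20191998, mm9) read 1.27 and 1.47 on the arrays labelled Junbfl/flCd4-Cre against 1.43 and 1.46 on the controls, a difference of -0.08 ± 0.16 (adjusted p = 0.732). By these neighbouring probes the genotypes overlapped. The third (A_55_P2168741, chr7:20203058-20203117, mm9), placed by the files on the transcript ENSMUST00000148040, read 0.347 and 0.485 on the arrays labelled Junbfl/flCd4-Cre against 0.214 and 0.211 on the controls. It gave the largest difference of the 21 probes, 0.95 ± 0.22 (0.33 to 1.56), with the smallest adjusted p (0.0746), and its genotypes did not overlap. It is a dim probe, in a class of tested probes whose median difference was 0.27. It was called with normexp background (0.54, adjusted p = 0.0472), a setting that called 27.5% of all probes, and not with quantile normalization (0.71, adjusted p = 0.135). The first 30 bases of the 3 probes show that they read different stretches:
A_51_P389751: gaagatggggagcactccggttctctttga
A_55_P2744644: tactgctagccttgtgggcagcaacatgtt
A_55_P2168741: ggcacaggtaccagaccccgacctttgacc
By the Euclidean distance between log2 values over the 4 arrays, each probe centred on its own mean, the nearest to this probe outside the members were Pald1 (distance 0.0368) and 2 intergenic noncoding RNA probes, A_30_P01025351 (0.0202) and A_30_P01025282 (0.0518). All 3 were dim as well, with adjusted p-values of 0.0796, 0.0744 and 0.0677.

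**Figure D2:**
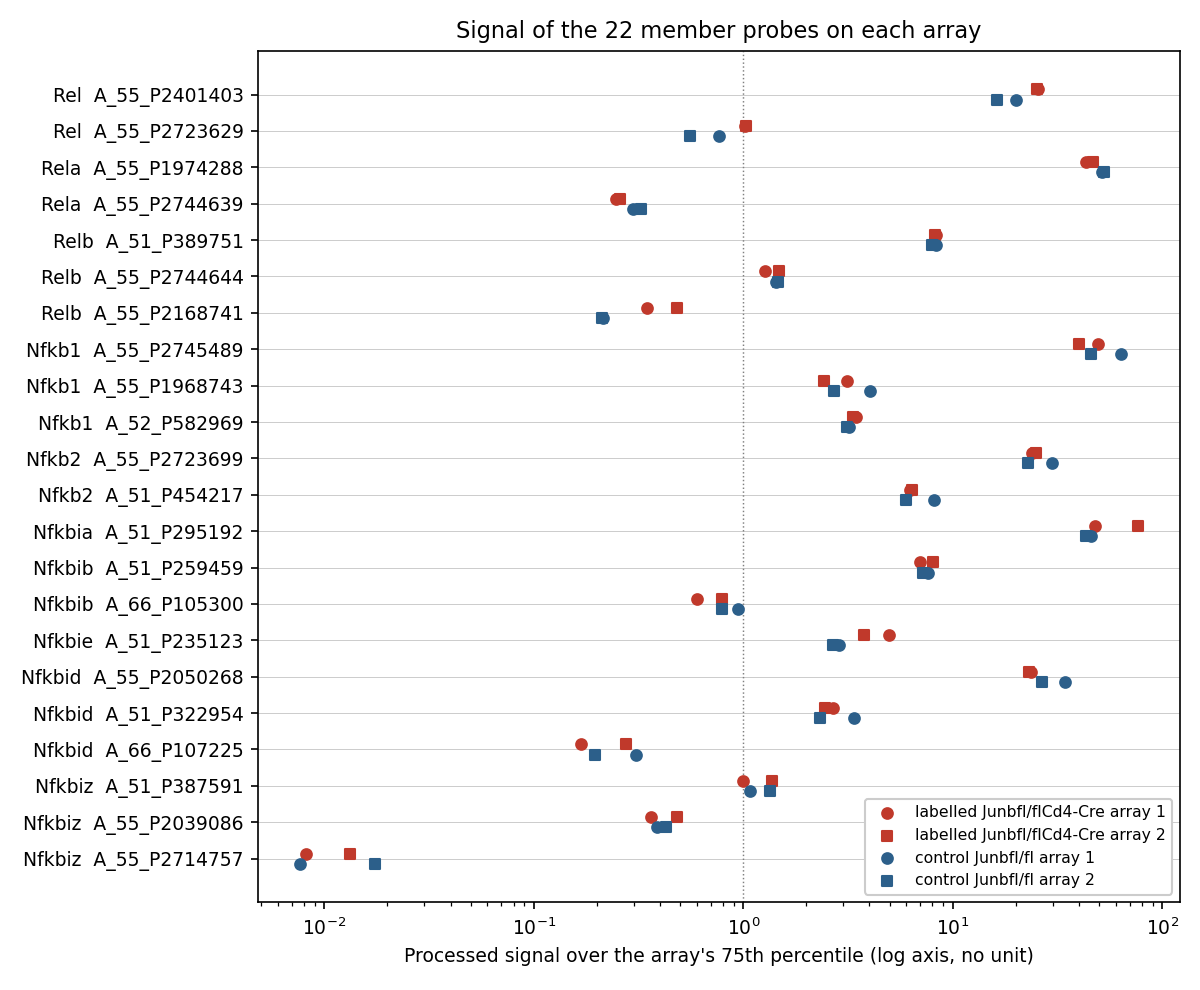
Signal of all 22 member probes on each array. The x axis (log) is the processed signal over the array's 75th percentile, red points are the 2 arrays labelled Junbfl/flCd4-Cre and blue points the 2 controls, with circles for array 1 and squares for array 2. Relb probe A_55_P2168741 reads 0.347 and 0.485 on the arrays labelled Junbfl/flCd4-Cre against 0.214 and 0.211 on the controls, and Nfkbia reads 76.6 on 1 array labelled Junbfl/flCd4-Cre with the other 3 arrays between 43.4 and 47.6; levels of different probes are not comparable.

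Nfkb1 and Nfkb2, the genes of the p105 and p100 precursors, did not pass the test with any of their 5 probes, and with 4 of these the genotypes overlapped. The brightest Nfkb1 probe (A_55_P2745489, chr3:135247898-135247958, mm9) read 49.7 and 39.9 on the arrays labelled Junbfl/flCd4-Cre, against 63.8 and 45.7 on the controls. Array 1 was the higher in both genotypes (log2 difference -0.28 ± 0.25, 95% interval -0.96 to 0.40, limma adjusted p = 0.438, and -0.52 to -0.037 without any 1 array). A second probe (A_55_P1968743, chr3:135254550-135254609, mm9) had the same order of arrays, at 3.13 and 2.42 on the arrays labelled Junbfl/flCd4-Cre against 4.01 and 2.70 on the controls (-0.26 ± 0.28, adjusted p = 0.515). The third (A_52_P582969, chr3:135275144-135275203, mm9), on another transcript in the files, read 3.47 and 3.33 on the arrays labelled Junbfl/flCd4-Cre against 3.19 and 3.11 on the controls (0.11 ± 0.15, adjusted p = 0.609). For Nfkb2, the brighter probe (A_55_P2723699, chr19:46386440-46386499, mm9) read 23.9 and 24.99 on the arrays labelled Junbfl/flCd4-Cre against 29.9 and 23.0 on the controls, and the other (A_51_P454217, within chr19:46386146-46386285, mm9) read 6.24 and 6.39 on the arrays labelled Junbfl/flCd4-Cre against 8.11 and 5.96 on the controls. Control 1 stood above the other 3 arrays with both Nfkb2 probes. Their differences of -0.10 ± 0.20 and -0.14 ± 0.21 (adjusted p = 0.723 and 0.645) turned to 0.09 and 0.08 without control 1.

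Among the cytoplasmic inhibitors, Nfkbie (IkappaB-epsilon) and Nfkbia (IkappaB-alpha) read higher on the arrays labelled Junbfl/flCd4-Cre and Nfkbib (IkappaB-beta) did not, and none passed the test. Nfkbie (A_51_P235123, chr17:45700000-45700059, mm9) read 4.95 and 3.78 on the arrays labelled Junbfl/flCd4-Cre, against 2.86 and 2.68 on the controls. Of the 7 members with a promoter window it alone held an AP-1 site, and a link of that site to these values was not tested. The genotypes did not overlap, and the log2 difference was 0.65 ± 0.20 (95% interval 0.09 to 1.20, limma adjusted p = 0.105), between 0.45 and 0.84 without any 1 array. It was 0.88 above the median difference of its class of brightness, the largest such gap of the 21. With median scaling it was 0.11 and with quantile normalization 0.85 (adjusted p = 0.0949). Nfkbia, the inhibitor that NF-kappaB induces as its own feedback (A_51_P295192, within chr12:56590945-56591440, mm9), read 47.6 and 76.6 on the arrays labelled Junbfl/flCd4-Cre, against 45.9 and 43.4 on the controls. Array 2 labelled Junbfl/flCd4-Cre stood apart from the other 3, which were close together. The difference of 0.44 ± 0.28 (-0.34 to 1.21, adjusted p = 0.305) was 0.09 without that array and 0.78 without array 1 labelled Junbfl/flCd4-Cre. Array 2 is also the one on which the Junb probe at chr8:87500843-87500902 was high. A link between these readings of 1 array was not tested. Nfkbib read 6.96 and 8.09 on the arrays labelled Junbfl/flCd4-Cre against 7.64 and 7.21 on the controls by its bright probe (A_51_P259459, within chr7:29544167-29544848, mm9), a difference of 0.02 ± 0.17 (adjusted p = 0.950). Its dim probe (A_66_P105300, within chr7:29546905-29547054, mm9) read 0.603 and 0.795 on the arrays labelled Junbfl/flCd4-Cre against 0.942 and 0.793 on the controls (-0.32 ± 0.22, adjusted p = 0.330, and -0.52 to -0.12 without any 1 array), where array 1 labelled Junbfl/flCd4-Cre was the low one.

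The nuclear inhibitors Nfkbid and Nfkbiz act on chromatin-bound NF-kappaB rather than by holding it in the cytoplasm. In mice, Nfkbid (IkappaB-NS) takes part in Foxp3 induction in Treg precursors, and Nfkbiz (IkappaB-zeta) in Th17 differentiation. The brightest Nfkbid probe (A_55_P2050268, chr7:31213705-31213764, mm9) read 23.8 and 23.3 on the arrays labelled Junbfl/flCd4-Cre, against 34.5 and 26.8 on the controls. The genotypes did not overlap, with control 1 the highest, and the log2 difference of -0.37 ± 0.19 (95% interval -0.90 to 0.16, limma adjusted p = 0.227) was the lowest of the 21. The median of its class of brightness was -0.35, without any 1 array it was between -0.55 and -0.19, and with quantile normalization it was -0.05. The second probe (A_51_P322954, chr7:31212521-31212580, mm9) read 2.69 and 2.46 on the arrays labelled Junbfl/flCd4-Cre against 3.36 and 2.34 on the controls, and the third (A_66_P107225, within chr7:31206829-31208456, mm9) read 0.168 and 0.275 on the arrays labelled Junbfl/flCd4-Cre against 0.306 and 0.196 on the controls. Both overlapped between the genotypes (-0.12 ± 0.24 and -0.19 ± 0.37, adjusted p = 0.720 and 0.719). Under median scaling the brightest Nfkbid probe was called (-0.90, adjusted p = 0.0494), as were the Rela probes. The tested Nfkbiz probes read 0.999 and 1.38 on the arrays labelled Junbfl/flCd4-Cre against 1.07 and 1.33 on the controls (A_51_P387591, chr16:55812091-55812150, mm9) and 0.363 and 0.483 on the arrays labelled Junbfl/flCd4-Cre against 0.385 and 0.429 on the controls (A_55_P2039086, chr16:55817859-55817918, mm9), with differences of -0.03 ± 0.24 and 0.04 ± 0.21 (adjusted p = 0.940 and 0.893). The genotypes overlapped, and array 2 read higher than array 1 in both. The remaining Nfkbiz probe (A_55_P2714757, chr16:55824797-55824856, mm9) was not well above background on any array and was not tested.

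Several member probes had the same order of arrays 1 and 2 in both genotypes. Of the 21 probes, 8 read higher on array 1 than on array 2 in both genotypes, among them the Nfkb1 probes, and 5 read higher on array 2 in both, among them those of Nfkbiz. These counts were not taken over all probes, so they are not read as a trait of the members. Differences taken within a number had the same sign in both numbers for 11 of the 21 probes, beside 28152 of all 33606 probes. These differences were 0.35 and 0.63 for the brighter Rel probe, 0.80 and 0.50 for Nfkbie, -0.26 and -0.18 for the bright Rela probe, and 0.05 and 0.82 for Nfkbia.

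The sign of several members depended on how the arrays were scaled, as the plot of 5 settings shows. With quantile normalization the median over the 21 probes was 0.10, beside -0.08 over all probes, and 14 were positive. Median scaling moves every probe by the same amount, so its median of -0.61 beside -0.54 over all probes, with 3 positive, holds the same order of probes as the values above. The probes of Nfkbie, the dimmer Rel probe and Relb probe A_55_P2168741 were positive in each of the 5 settings, and 4 probes of Nfkb1 (A_55_P1968743), Nfkbib (A_66_P105300), Nfkbid (A_55_P2050268) and Rela (A_55_P2744639) were negative in each. Some of the negative values were close to 0. The Rela probe gave -0.012 with normexp background. With normexp and quantile together, the Nfkbid probe gave -0.034 and the Nfkb1 probe -0.044.

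**Figure D3:**
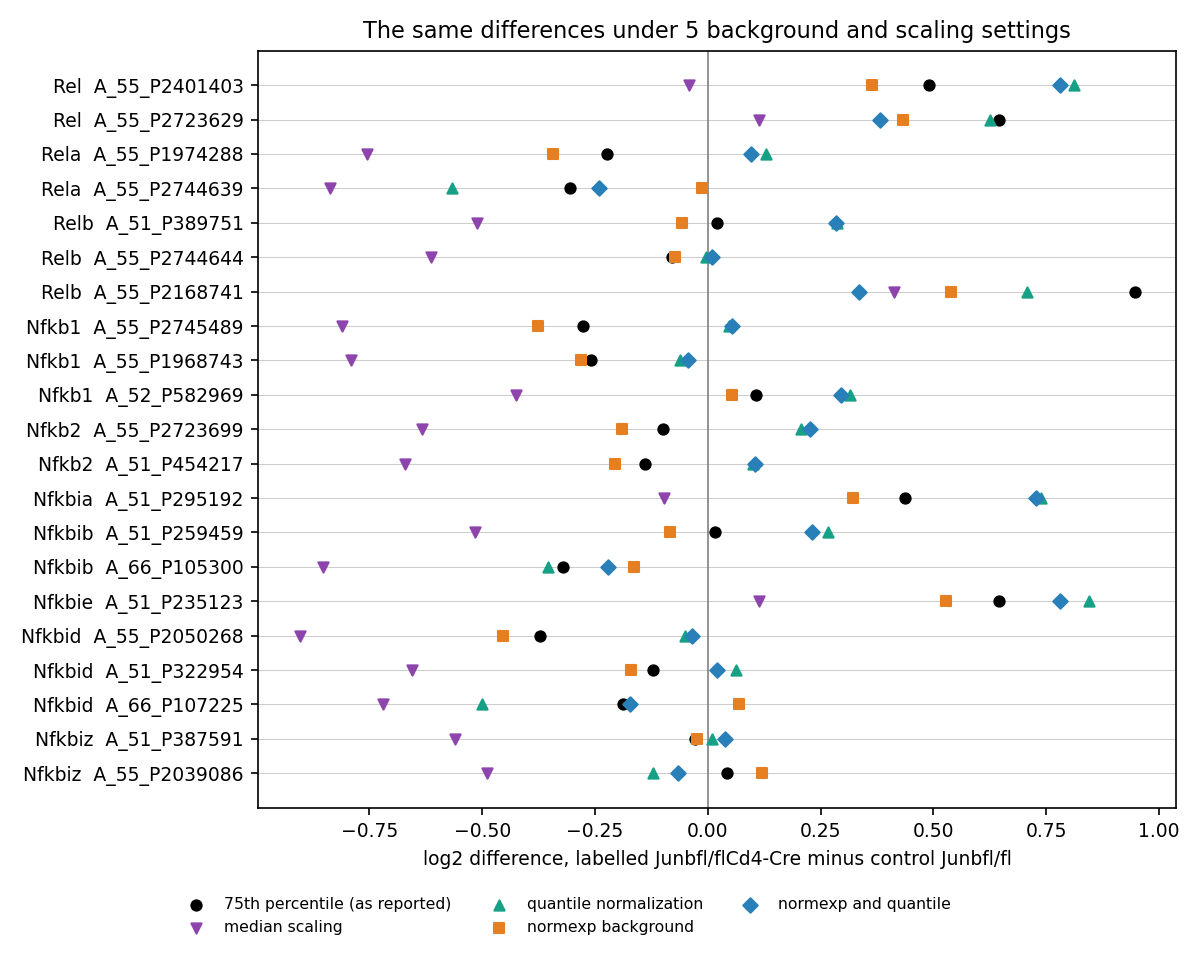
The log2 difference of each tested member probe (x axis, labelled Junbfl/flCd4-Cre minus control Junbfl/fl) under 5 settings of background and scaling, one symbol per setting. Median scaling shifts every probe down by the same amount, so that the brighter Rel probe goes to -0.04, while quantile normalization places it at 0.81.

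The signalling genes around the members held 5 called genes. Of 24 IKK kinases and adaptors, 1 fell and none rose (median log2 difference -0.16, 19 negative), beside 8.07% of all 22491 genes called either way by their brightest probe, 6.8% higher and 1.27% lower, and a median over all genes of 0.01. Of the 24, 22 lay in the 2 brightest of the 5 classes, whose medians over all probes were -0.23 and -0.35. The gene that fell was Malt1, the paracaspase that links antigen receptors to IKK. It read 5.28 and 4.28 on the arrays labelled Junbfl/flCd4-Cre, against 14.96 and 15.5 on the controls. The log2 difference was -1.68 ± 0.18 (limma adjusted p = 0.0310), and its 4 probes gave -1.68, -1.52, -1.40 and -1.32, of which the last was not called (adjusted p = 0.0586). With quantile normalization Malt1 gave -1.42 and was not called (adjusted p = 0.0575).

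Of 12 other negative regulators and nuclear cofactors none was called (median -0.37, 8 negative), and 11 lay in the 2 brightest classes. The smallest p-values were those of N4bp1 (-0.90, adjusted p = 0.0658), and of Tnfaip3, which encodes the deubiquitinating feedback inhibitor A20 and read 8.95 and 11.499 on the arrays labelled Junbfl/flCd4-Cre against 5.37 and 5.68 on the controls (0.88 ± 0.20, adjusted p = 0.0710). Of 13 tested receptors (of 15 listed) that signal to NF-kappaB, 1 rose and 1 fell (median 0.13, 7 positive). Tnfrsf9, the costimulatory receptor 4-1BB, read 31.3 and 34.2 on the arrays labelled Junbfl/flCd4-Cre against 15.95 and 12.5 on the controls and rose by 1.21 ± 0.20 (adjusted p = 0.0491, but 0.0924 with median scaling, where the difference was 0.68). The other Tnfrsf9 probe gave 1.28 and was not called (limma adjusted p = 0.0736). Tlr2, a receptor of microbial lipoproteins, read 0.233 and 0.173 on the arrays labelled Junbfl/flCd4-Cre against 0.542 and 0.494 on the controls and fell by 1.37 ± 0.21 on the log2 scale (adjusted p = 0.0472, and 0.0602 with quantile normalization), with smaller differences of -0.42 with normexp background and -0.64 with normexp and quantile together.

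Of 25 known NF-kappaB target genes 20 were tested, and of these 2 fell and none rose, with 17 negative and a median log2 difference of -0.80, beside 8.07% of all genes called, 1.27% lower. Over all 33606 probes, 17039 were negative. Of the 20, 15 lay in the 2 brightest classes, with medians over all probes of -0.23 and -0.35. The list leaves out the members, 9 of whose 21 probes were positive and 12 negative, and Tnfaip3 (0.88, not called). Some of these are known targets too, among them Nfkbia (0.44, not called), so the median of -0.80 is not that of all targets. It was taken only with the scaling reported. Lta, the lymphotoxin-alpha gene, read 5.06 and 10.6 on the arrays labelled Junbfl/flCd4-Cre, against 52.0 and 46.9 on the controls, and fell by 2.75 ± 0.40 on the log2 scale (limma adjusted p = 0.0429, and 0.0679 with quantile normalization). Vcam1, an adhesion molecule of vessel walls, read 0.00828 and 0.0134 on the arrays labelled Junbfl/flCd4-Cre, not well above background, against 0.0611 and 0.0837 on the controls. It was at least 1.56-fold lower, a bound that was not itself tested. The call rests on the measured signals (-2.76, limma adjusted p = 0.0337), and the probe entered the test through the controls alone. The other Vcam1 probe was not well above background on any array and was not tested. With normexp background Vcam1 gave 0.01 and was not called. Without any 1 array limma called 0 of all 33606 probes, these 5 genes included, with 7315 to 11361 probes at an unadjusted p under 0.05. Each such fit leaves 1 array in a genotype, assumed to vary like the other genotype, so calls are hard to reach, and the differences stayed between -1.83 and -1.53 for Malt1 and between -3.29 and -2.22 for Lta.

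**Figure D4:**
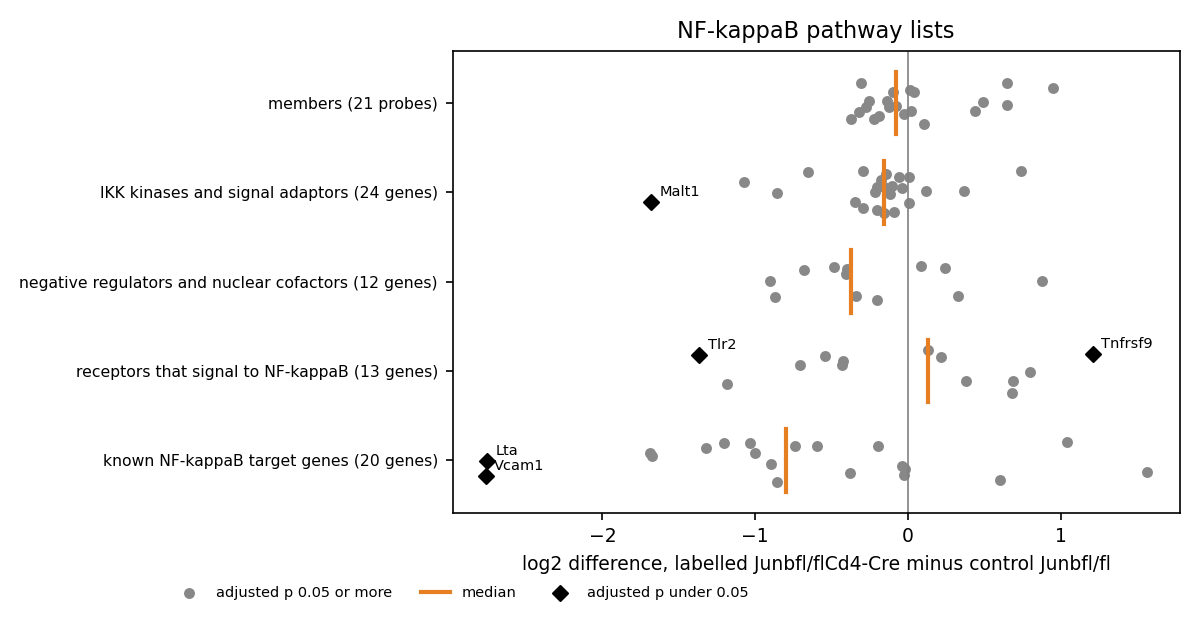
Log2 differences (x axis, labelled Junbfl/flCd4-Cre minus control Junbfl/fl) of the member probes and of the genes of 4 pathway lists by their brightest tested probe, with orange bars at the medians, black diamonds for an adjusted p under 0.05 and a random vertical offset for legibility. The members cluster about their median of -0.08, and the target genes have the lowest median, -0.80.

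In the authors' deposited table, which holds log2 signals per transcript accession, 17 rows belonged to the 10 members and 0 of them had an adjusted p under 0.05, beside 641 of all 26594 rows (2.41%). In the authors' deposited table the lowest adjusted p among the members was that of Rel (ENSMUST00000102864), 0.0568, with a log2 difference of 0.79. Nfkbie followed there at 0.82 (adjusted p = 0.0799) in the authors' deposited table. The same authors' deposited table gave 0.71 for Nfkbia (adjusted p = 0.130), -0.19 for Rela (0.312) and, for Relb, 0.51 for ENSMUST00000148040 (0.138), 0.30 for NM_009046 (0.143) and -0.01 for NM_001290457 (0.961).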

How the data were processed

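Per the file headers, Agilent Feature Extraction 11.5.1.1 gave each spot a mean and a background intensity and the deposited processed intensity, corrected for background and spatial trend but not scaled between arrays. The deposited flags used were those for control spots, outliers and signal well above background, and positions are on mm9. The authors also deposited a table of log2 signals, log2 differences, p-values and limma-type scores per accession; the labels do not say how the authors made it.

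Outlier-flagged spots were left out, spots of a probe averaged, and 295 probes lacking a usable spot somewhere dropped, leaving 56310. The log2 processed signal minus the array's 75th percentile was tested for the 33606 probes flagged as above background in every array of 1 genotype or more, with limma 3.58.1 (lmFit, eBayes; R 4.3.3), no covariate, Benjamini-Hochberg over all probes, called under 0.05. The number of arrays, 2 per genotype, limits the precision. Pathway and marker lists used each gene's brightest tested probe. The fit was tested on simulated data. Alternatives were other scalings, normexp background (offset 50), other dim-probe filters, a replicate block, leaving out each array, 1 probe per gene and the authors' table.

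The members and lists were chosen with earlier results of these data known. Named were all members, the called genes of each pathway list or else its 2 with the smallest p, Junb, and the 3 genes nearest in pattern to the member probe with the smallest p. Promoters come from RefSeq (GRCm38.p6). Python 3.11.15, pandas 2.3.3 and matplotlib 3.10.9 were used for tabulation and plots.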

Additional observations from a re-analysis of the deposited data

How the results depend on the processing

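The count of all probes called, 2277 as reported, was 650 with quantile normalization, 12972 with median scaling, 9239 with normexp background, 338 with normexp and quantile together, 1377 with probes above background on all 4 arrays, 641 on the authors' log2 signals and 8522 with the replicate number as a block; it was 0 without the filter on dim probes (12028 at an unadjusted p under 0.05) and 0 without any 1 array (7315 to 11361 at an unadjusted p under 0.05). For the pathway genes, median scaling, normexp background alone and the block were chosen after seeing the data. The share of calls that were higher was 81.6% as reported, 18.5% with median scaling, 47.6% with normexp background, 72.8% with quantile normalization and 67.4% with the block. Of the members, 3 were called with median scaling, 1 with normexp background and 1 with the replicate block, and 0 in the other settings. The block call was Relb A_55_P2168741 (adjusted p = 0.0455, 25.4% of all probes called). Same-numbered arrays deviated together (correlation 0.45 across probes) and lay in the same row of 1 slide, but no label says that a number marks a shared mouse or day, so the block was not used as the pairing. A slide block was not run because all arrays shared 1 slide. The pathway genes called, 5 as reported, were 2 with quantile normalization, 1 with normexp and quantile and 0 without any 1 array. The uncalled N4bp1 and Tnfaip3 were called with normexp background (adjusted p = 0.0326 and 0.0351) and with the block (0.0436 and 0.0399), and N4bp1 with median scaling (0.0331).

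The median difference over the members, -0.08 as reported, was 0.10 with quantile normalization, -0.61 with median scaling, 0.095 with normexp and quantile, 0.15 on the authors' signals, and between -0.12 and 0.058 without any 1 array. Of the 5 pathway genes called, 1 turned its sign in the settings run, Vcam1 (0.013 with normexp background). Signs of uncalled member probes turned as follows. With quantile normalization Nfkb1 A_55_P2745489 was 0.048, the Nfkb2 probes 0.21 and 0.10, Nfkbid A_51_P322954 0.063, the Nfkbiz probes 0.0085 and -0.12 and Rela A_55_P1974288 0.13. With normexp and quantile these were 0.053, 0.23, 0.10, 0.020, 0.037, -0.066 and 0.095, and Relb A_55_P2744644 was 0.0083. With median scaling Nfkb1 A_52_P582969 was -0.43, Nfkbia -0.10, Nfkbib A_51_P259459 -0.52, Nfkbiz A_55_P2039086 -0.49, Rel A_55_P2401403 -0.042 and Relb A_51_P389751 -0.51. With normexp background Nfkbib A_51_P259459 was -0.083, Nfkbid A_66_P107225 0.069 and Relb A_51_P389751 -0.058. On the authors' signals, matched by accession, Nfkb1 A_55_P2745489 was 0.056. Both Nfkb2 probes matched 1 row, listed there with A_51_P454217, at 0.15. Both tested Nfkbiz probes matched 1 row at -0.033, listed there with A_51_P387591, which was negative as reported too. The labels do not say how a row was made from its probes, so that row cannot be read as A_55_P2039086 alone. Leaving out 1 array gave ranges of -0.54 to 0.029 for Nfkb1 A_55_P1968743, -0.29 to 0.089 and -0.36 to 0.082 for Nfkb2, -0.093 to 0.12 for Nfkbib A_51_P259459, -0.39 to 0.14 and -0.54 to 0.17 for Nfkbid A_51_P322954 and A_66_P107225, -0.26 to 0.20 and -0.16 to 0.25 for Nfkbiz, and -0.011 to 0.053 and -0.19 to 0.025 for Relb A_51_P389751 and A_55_P2744644. The cause of these changes was not tested.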
